A study of Mus musculus with 24 samples.

Results

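Hemoglobin and other red cell transcripts were followed in whole mouse calf muscle through 6 genes, Hba-a1, Hba-a2, Hbb-bs, Hbb-bt, Alas2 and Slc4a1, out of 55385 genes counted in each library. They were chosen by their read counts in these same 24 libraries, so their levels and differences are given as a description and are not tested. All 6 were matched by versioned Ensembl identifier, and all 6 were among the 17803 genes that passed the filter on low counts. There were 4 libraries in each of 6 groups, with between 36415886 and 59733985 reads on genes per library. For 5 of the groups the study describes RNA from the gastrocnemius, a muscle of the calf, of female C57BL/6J mice. Young GFP mice were 3 to 6 months old, old GFP mice 21 to 24 months and oldest-old GFP mice 27 to 29 months, and all received an adeno-associated virus (AAV) that carries green fluorescent protein. In the old and the oldest-old age range, AAV-Kl mice received a virus that carries mouse Klotho behind a promoter active in liver. Muscle of these 5 groups was taken 14 days after injection, and the vector dose was the same in all of them. A further group, young sham, is known only by its label, and the study's methods do not describe its mice. Genes of the muscle fibre took between 150374 and 194365 of every 1000000 reads on genes in each library, and no rinsing of blood vessels is described in the sources used here.

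Hemoglobin is a tetramer of alpha chains and beta chains, each of which holds a heme group that binds oxygen. Red cells lose their nucleus before they enter the blood and carry over messenger RNA from the marrow, of which globin mRNA is the largest share in young red cells. Muscle fibres make myoglobin for their own oxygen store, so globin mRNA in whole muscle is commonly read as a sign of blood in the tissue. In bulk RNA, more red cells in a sample and more RNA per red cell cannot be told apart.

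Hba-a1 and Hba-a2 encode the adult alpha chain and lie beside each other on chromosome 11 of the GRCm38 genome, at chr11:32283511-32284465 and chr11:32296489-32297298 on the plus strand. Hbb-bs and Hbb-bt encode the adult beta chain and lie on the minus strand of chromosome 7, at chr7:103826534-103828096 and chr7:103812524-103813996. Alas2, the erythroid form of the first enzyme of heme synthesis, lies on the plus strand at chrX:150547375-150570638 and overlaps Apex2 and Mir3620 on the other strand. Slc4a1 encodes band 3, the anion exchanger that anchors the red cell membrane to its skeleton, and lies on the minus strand at chr11:102348824-102366203.

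The globin genes of each pair are almost the same sequence, which bears on how reads were split between them. In the GENCODE M21 transcripts, the 429 coding bases of Hba-a1 and Hba-a2 differ at 1 position, C381T, counted from the first base of the start codon. Over 444 coding bases, Hbb-bs and Hbb-bt also differ at 1 position, C417T. The stretches that hold these differences are shown because they are the only places in the coding sequences where a read can be told apart, with the base that differs in capitals. The first pair lies in exon 3 at chr11:32284328-32284357 and chr11:32297145-32297174, and the second in exon 3 at chr7:103826678-103826707 and chr7:103812669-103812698.
Hba-a1: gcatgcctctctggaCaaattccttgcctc
Hba-a2: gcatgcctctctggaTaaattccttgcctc
Hbb-bs: ggtggctggagtggcCgctgccctggctca
Hbb-bt: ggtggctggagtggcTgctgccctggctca

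Of all stretches of 100 bases in its transcript, Hba-a1 held 43.5% that occur in no other gene, Hba-a2 25.5%, Hbb-bs 37.4% and Hbb-bt 45.2%. Each shared stretch was shared only with the other gene of the pair. For Alas2 the share was 89.0%, with the rest in Apex2, and for Slc4a1 it was 100%. STAR counts only reads that map to 1 place, so the counts of the globin genes miss reads from shared stretches, and the split between Hba-a1 and Hba-a2 or between Hbb-bs and Hbb-bt is uncertain.

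Promoters of the 6 genes were searched on both strands in the 250 bases before the RefSeq start site (GRCm38.p6). The table of promoters held 5 of the 6, without Slc4a1. The letters AGATAA or TGATAA, which the erythroid factor GATA1 can bind, were present in Hba-a1, Hba-a2, Hbb-bs and Alas2, and in 16.6% of all 32851 promoters. ATATAA, a form of the TATA box, stood 28 to 31 bases before the start of all 4 globin genes and is in 9.10% of promoters. CACCC, in 52.0% of promoters, occurred in all 5, with copies end to end in Alas2. CCAAT, in 33.8% of promoters, occurred in the 4 globin genes. A match of letters is not evidence of binding. The windows with the GATA letters in capitals are shown first, then 2 of those with the TATA letters, each written along its gene, so that TTATCT in Alas2 is AGATAA on the other strand.
Hba-a1 at chr11:32283477-32283506: tgtccgggcaacTGATAAggattccctgca
Hba-a2 at chr11:32296294-32296323: tgtccgggcaacTGATAAggattccctgca
Hbb-bs at chr7:103828121-103828150: tgttctctgcacAGATAAggacaaacatta
Alas2 at chrX:150547319-150547348: ctactttgctttTTATCTttagcagaggcc
Hbb-bs at chr7:103827941-103827970: ccagggcagagcATATAAggtgaggtagga
Hba-a2 at chr11:32296449-32296478: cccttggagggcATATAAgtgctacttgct

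The 6 genes together took between 0.00418% and 0.0715% of the reads on genes, a range of 17.1-fold, with 223562 reads over the 24 libraries. Levels are given as CPM, the reads on a gene for every 1000000 reads on genes. The sum of the 6 genes was 715 CPM in oldest-old GFP replicate 4, 631 CPM in oldest-old GFP replicate 1, 454 CPM in old AAV-Kl replicate 1, 360 CPM in old AAV-Kl replicate 2 and 260 CPM in young sham replicate 1. These 5 libraries held 57.6% of all reads on the 6 genes. The other 19 libraries lay between 41.8 and 197 CPM. So the high libraries belonged to 3 groups, and in each of these groups the remaining libraries were low. The 5 libraries did not share a depth, with 45738616 to 59733985 reads on genes, nor a share of reads mapped to several places, which spanned the whole range of the series from 9.78% to 12.2%.

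**Figure D1:**
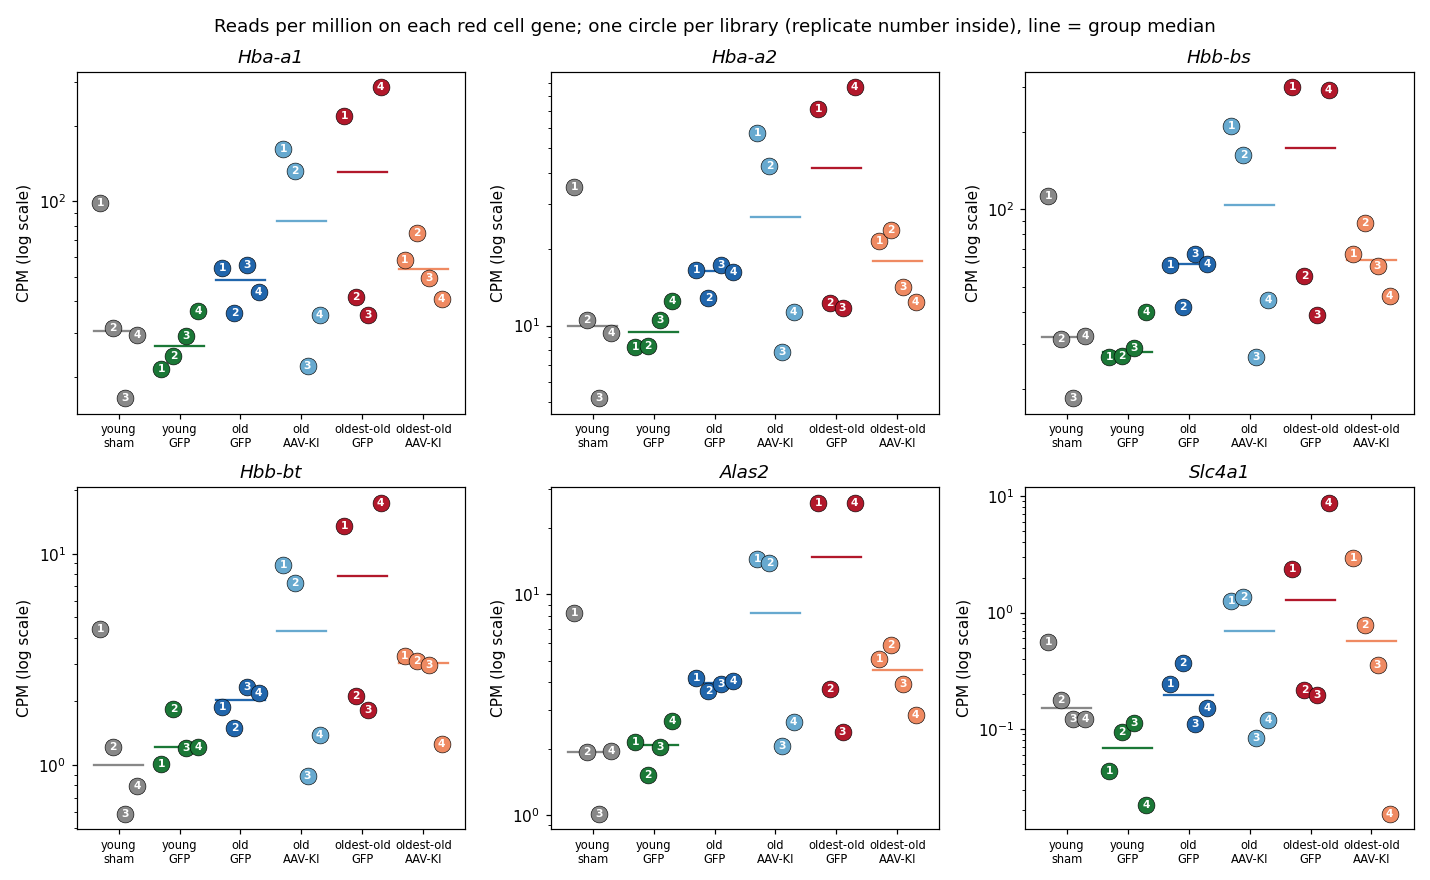
CPM of each of the 6 genes on a log axis, with groups along the horizontal axis, a circle for each library with its replicate number inside, and a line at the median of the group. In 5 of the 6 panels the same 5 libraries are highest, and the circles of old GFP and young GFP lie close together, while those of old AAV-Kl and oldest-old GFP fall apart into a high and a low pair.

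Hbb-bs, the more abundant of the beta globin genes, was measured at 113, 31.4, 18.5 and 32.2 CPM in young sham replicates 1 to 4. In young GFP it was at 26.6, 27.02, 28.8 and 39.8 CPM, and in old GFP at 61.0, 41.7, 66.9 and 61.3 CPM. The old GFP libraries all lay above the young GFP libraries, while sham replicate 1 stood above every library of both. In old AAV-Kl the values were 211, 163, 26.7 and 44.5 CPM. In oldest-old GFP they were 298, 55.2, 39.1 and 291 CPM, and in oldest-old AAV-Kl 66.8, 88.5, 60.2 and 45.9 CPM. Within old AAV-Kl and within oldest-old GFP a high pair and a low pair were separated by a gap wider than the whole range of young GFP or old GFP.

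Hba-a1, the more abundant alpha globin gene, ranged from 16.4 to 285 CPM, with group medians of 26.6 CPM in young GFP, 30.3 CPM in young sham, 48.8 CPM in old GFP, 54.0 CPM in oldest-old AAV-Kl, 83.5 CPM in old AAV-Kl and 131 CPM in oldest-old GFP. Hba-a2 ranged from 5.18 to 86.6 CPM and had the same order of medians. Hbb-bt, the less abundant beta globin gene, ranged from 0.589 to 17.4 CPM, with its lowest median, 1.0 CPM, in young sham and its highest, 7.81 CPM, in oldest-old GFP. For Hba-a1, Hba-a2, Hbb-bs and Hbb-bt the ranges of neighbouring groups in this order overlapped at every step.

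Alas2 was at 8.29, 1.93, 1.01 and 1.95 CPM in young sham, and at 2.14, 1.52, 2.03 and 2.66 CPM in young GFP. In old GFP it was at 4.19, 3.66, 3.93 and 4.04 CPM, the narrowest group, with an SD of 0.224 CPM. These lay above every young GFP library. In old AAV-Kl its values were 14.5, 13.8, 2.06 and 2.64 CPM, in oldest-old GFP 26.0, 3.74, 2.38 and 26.1 CPM, and in oldest-old AAV-Kl 5.11, 5.90, 3.94 and 2.83 CPM. The same libraries were high as for the globins. From young GFP to old GFP was the only step in the order of Alas2 medians at which the ranges did not overlap.

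Slc4a1 was the lowest of the 6 and rested on few reads outside the high libraries. In young GFP it had 2, 4, 6 and 1 reads, or 0.0441, 0.0948, 0.113 and 0.0222 CPM. In young sham it was at 0.558, 0.179, 0.122 and 0.122 CPM, and in old GFP at 0.241, 0.368, 0.110 and 0.151 CPM. In old AAV-Kl the values were 1.27, 1.37, 0.0842 and 0.121 CPM. Oldest-old GFP replicates gave 2.36, 0.216, 0.197 and 8.79 CPM, and oldest-old AAV-Kl replicates 2.91, 0.789, 0.353 and 0.0188 CPM. The highest value rests on 525 reads (exact Poisson 95% interval 8.05 to 9.57 CPM) and the lowest on 1 read (0.000477 to 0.105 CPM), and these intervals cover counting error only. Oldest-old AAV-Kl replicate 1, which was not among the 5 libraries that were high for the globins and Alas2, ranked second for Slc4a1.

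Per kilobase of exon, the median library held 65.9 CPM of Hbb-bs, 50.8 CPM of Hba-a1 and 18.98 CPM of Hba-a2. On the same scale Hbb-bt was at 2.65 CPM, Alas2 at 1.54 CPM and Slc4a1 at 0.0384 CPM per kilobase. Globin genes made up 94.9% to 97.4% of the reads on the 6 genes in each library. Among other globin genes, the embryonic Hba-x, Hbb-y and Hbb-bh2 had 0 reads in all 24 libraries, which allows up to 3 reads, or 0.0502 to 0.0824 CPM, in a library. Hbb-bh1 had 3 reads, all in old AAV-Kl replicate 3, and the theta globins Hbq1a and Hbq1b had 9 and 22 reads over all libraries.

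Within a library Hba-a1, Hba-a2, Hbb-bs and Alas2 kept close to fixed proportions while their level changed. Hbb-bs had 0.994 to 1.41 reads per Hba-a1 read, with a coefficient of variation of 9.21% over the 24 libraries. Hba-a2 had 0.287 to 0.386 reads per Hba-a1 read. For every 100 Hbb-bs reads there were 2.46 to 6.84 Hbb-bt reads and 5.50 to 8.96 Alas2 reads. By contrast, Slc4a1 ran from 0.0410 to 4.36 reads per 100 Hbb-bs reads. It stood at 4.36 in oldest-old AAV-Kl replicate 1 and 3.02 in oldest-old GFP replicate 4, and at 0.891 or less in the other libraries. Oldest-old GFP replicates 1 and 4, whose Hbb-bs levels were almost the same, differed in this ratio, with 0.792 and 3.02.

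**Figure D2:**
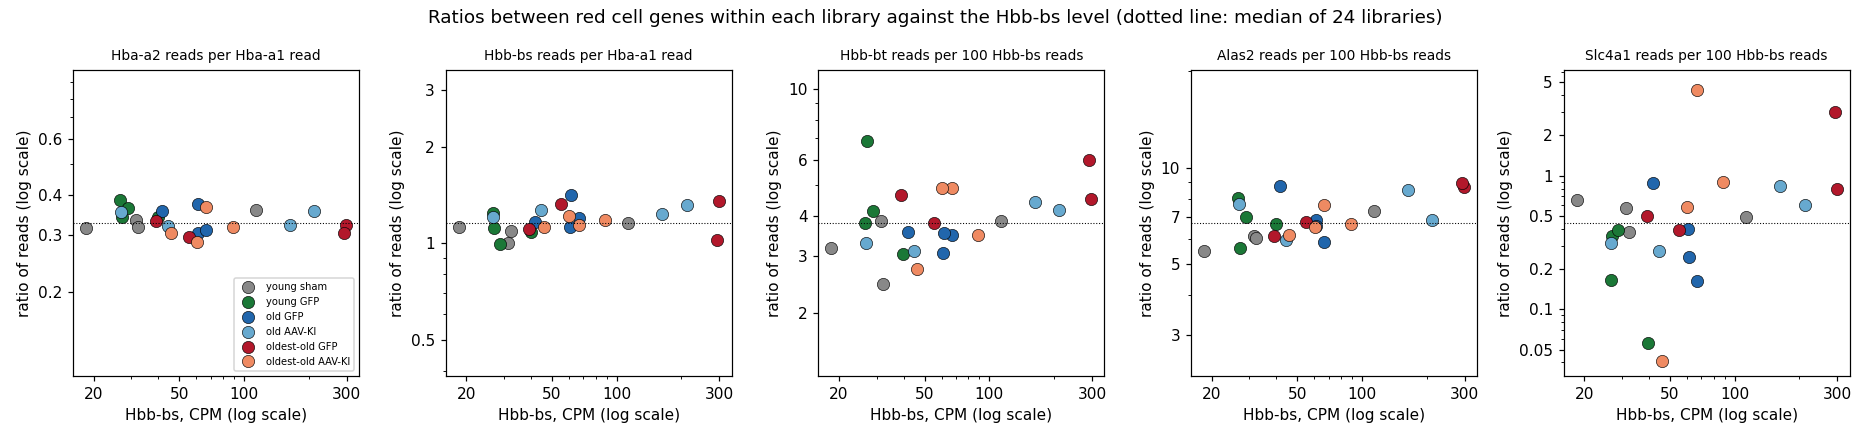
Ratios of reads between genes within each library (vertical, log axis) against the CPM of Hbb-bs in that library (horizontal, log axis), with 1 circle per library coloured by group and a dotted line at the median of 24 libraries. The ratios of Hba-a2, Hbb-bs and Alas2 stay in a narrow band, Hbb-bt spreads from 2.46 to 6.84, and in the Slc4a1 panel, whose axis is longer, 2 libraries stand at 3.02 and 4.36.

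Across the 24 libraries the log2 CPM of Hbb-bs had a Pearson correlation of 0.993 with Hba-a1, 0.990 with Alas2, 0.989 with Hba-a2, 0.968 with Hbb-bt and 0.81 with Slc4a1. With the group means subtracted these were 0.992, 0.986, 0.989, 0.964 and 0.746, so the genes also moved together between libraries of the same group. These correlations are descriptions, over points that share library depth and scaling.

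The effect of age was compared first between old GFP and young GFP mice. By CPM, 3 of the 6 genes (Hba-a2, Hbb-bs and Alas2) were higher in every old GFP library than in any young GFP library, where 9.46% of all genes tested did so. On the TMM scale, in which edgeR corrects library size for composition, the 2 genes that did so were Alas2 and Slc4a1. The share of all genes tested was not computed on that scale. For Slc4a1, which overlapped by CPM, this rested on few reads, with 4 in old GFP replicate 3 and 6 in young GFP replicate 3. Fitted log2 fold changes ran from 0.56 for Hbb-bt (SE 0.76) to 1.63 for Slc4a1 (SE 1.41), with 0.89 for Hbb-bs (SE 0.65) and 0.89 for Alas2 (SE 0.74). Their median was 0.81, beside 0.00 over all genes tested. The summed level was 1.74-fold higher as the difference of mean log2 CPM on the TMM scale, 0.80, with a pooled SD of 0.30 between libraries of a group.

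Oldest-old GFP was next set against young GFP. Here 1 of the 6 genes, Slc4a1, did not overlap between the groups, where 15.1% of all genes tested were higher without overlap. The other 5 overlapped through oldest-old GFP replicate 3, which lay just below the highest young GFP library, and for Hba-a2 through replicate 2 as well. Fitted log2 fold changes were 2.25 for Hba-a1 (SE 0.67), 2.07 for Hba-a2 (SE 0.67), 2.35 for Hbb-bs (SE 0.68), 2.60 for Hbb-bt (SE 0.77), 2.67 for Alas2 (SE 0.76) and 5.21 for Slc4a1 (SE 1.35). Their median was 2.48, beside 0.03 over all genes tested. These fitted values follow group means of counts, which the high pair dominates. As a difference of mean log2 CPM on the TMM scale the sum differed by 1.79, with a pooled SD of 1.10. Without oldest-old GFP replicate 4 the sum was 1.33 and the fitted value of Slc4a1 was 3.60.

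Between oldest-old GFP and old GFP, 0 of the 6 genes were free of overlap, where 5.82% of all genes tested were higher without overlap. The fitted log2 fold changes, 1.43 to 3.58, came from replicates 1 and 4, since replicates 2 and 3 lay within or below the range of old GFP for Hbb-bs and both alpha globin genes. The sum differed by 0.99 on the log2 scale, less than the pooled SD of 1.10. Without oldest-old GFP replicate 4 the fitted value of Slc4a1 went from 3.58 to 1.98. The comparisons of oldest-old GFP with young GFP and with old GFP share their oldest-old libraries.

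Klotho was compared with GFP at each of the older ages. In old mice, 0 of the 6 genes were free of overlap between old AAV-Kl and old GFP, where 0.786% of all genes tested were higher without overlap, and the old AAV-Kl libraries fell on both sides of the old GFP range. Fitted log2 fold changes were 0.91 to 1.68, with SE of 0.64 to 1.16 and a median of 1.02, beside 0.01 over all genes tested. The sum differed by 0.47 on the log2 scale with a pooled SD of 1.07, and by -0.01 without old AAV-Kl replicate 1.

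In oldest-old mice the fitted values pointed the other way. None of the 6 (0) were free of overlap between oldest-old AAV-Kl and oldest-old GFP, where 1.04% of all genes tested were lower without overlap. For Hbb-bs the 4 oldest-old AAV-Kl libraries, at 45.9 to 88.5 CPM, lay above oldest-old GFP replicate 3 and below the high pair. Fitted log2 fold changes were -1.36 for Hba-a1 (SE 0.65), -1.37 for Hbb-bs (SE 0.65), -1.70 for Alas2 (SE 0.72) and -1.48 for Slc4a1 (SE 1.04), with a median of -1.43 over the 6, beside 0.01 over all genes tested. For Slc4a1 this rested on single libraries, since it was 0.11 without oldest-old GFP replicate 4 and -2.88 without oldest-old AAV-Kl replicate 1. The sum differed by -0.87 on the log2 scale with a pooled SD of 1.11.

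**Figure D3:**
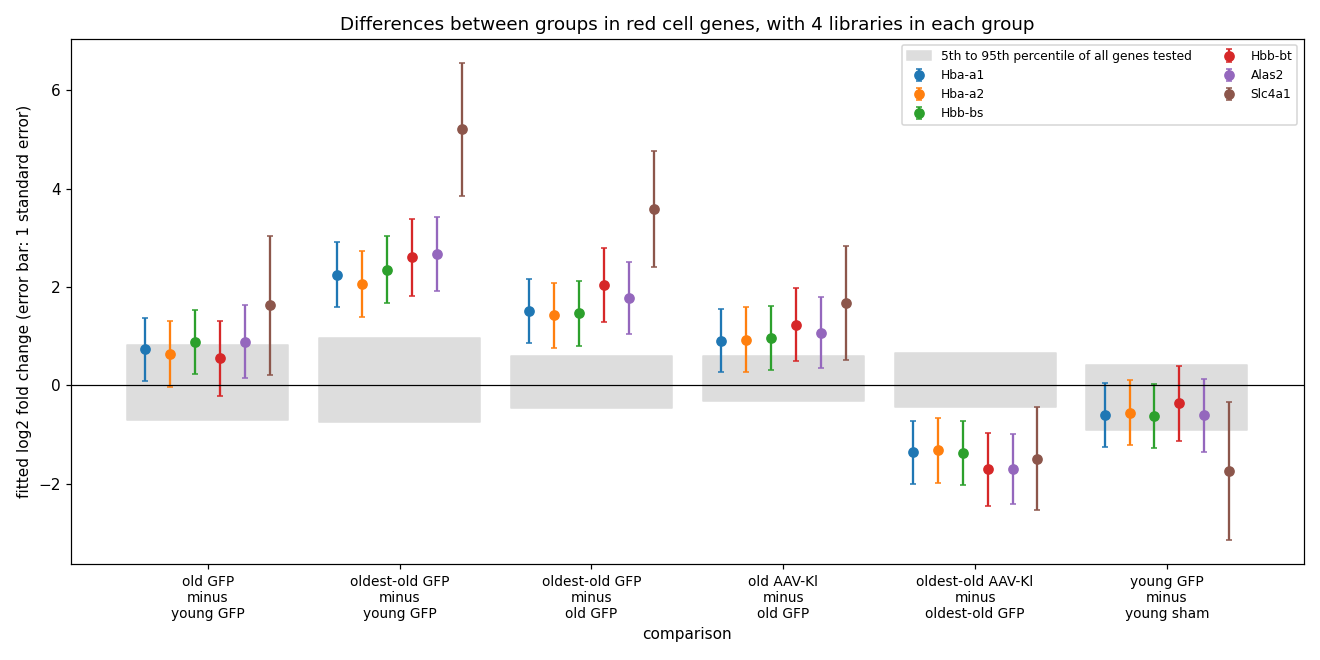
Fitted log2 fold change of each of the 6 genes in 6 comparisons, with error bars of 1 standard error and a grey band from the 5th to the 95th percentile of all 17803 genes tested. All 6 genes lie above the band in both comparisons of oldest-old GFP with a younger group and in that of AAV-Kl with GFP in old mice, and below it for AAV-Kl in oldest-old mice, while 3 genes lie within it for old GFP minus young GFP.

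Between young GFP and young sham, 1 of the 6 genes, Slc4a1, was lower without overlap, where 8.14% of all genes tested were. For Slc4a1 this rested on few reads. Young GFP replicate 3, at 0.113 CPM, and young sham replicates 3 and 4, at 0.122 CPM, each had 6 reads, so their order came from library depth. Fitted log2 fold changes were -0.36 for Hbb-bt (SE 0.76) to -1.74 for Slc4a1 (SE 1.41). Without young sham replicate 1, the globins and Alas2 were instead higher in young GFP, by 0.27 to 0.75, and Slc4a1 was at -0.87.

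Red cell genes outside the 6 were tested in the same fits, from a list of 20 of which 19 were matched and 11 passed the filter. This list, like the other lists below, was chosen with earlier results of these data known. Its p-values are therefore not independent of that choice. In oldest-old GFP against young GFP, 4 of the 11 were called higher and 1 lower by edgeR's quasi-likelihood test with Benjamini-Hochberg adjustment. Of all genes tested 14.9% were called, 8.8% higher and 6.08% lower. Trim10, a gene of erythroid differentiation, was at 0.403, 0, 0.0656 and 1.26 CPM in oldest-old GFP and at 0.0220, 0, 0.0563 and 0.0665 CPM in young GFP. Replicates 1 and 4 were above every young library, while replicates 2 and 3 lay in the young range (log2 fold change 3.35, SE 1.07, edgeR adjusted p = 0.0395). Without replicate 1 or replicate 4 of oldest-old GFP, Trim10 was no longer called.

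Other called genes of the list are not limited to red cells and differed less. Tal1, a transcription factor that endothelium also expresses, rose by 0.58 on the log2 scale (edgeR adjusted p = 0.0213), and Tspan33 by 0.52 (edgeR adjusted p = 0.0311). Tmcc2 fell by 0.33 on the log2 scale (edgeR adjusted p = 0.0461). Sptb, which encodes beta spectrin and was the most abundant of the list, was at 323 to 608 CPM over all libraries and was not called. Oldest-old GFP replicate 4 stood apart from the rest for Sptb and Tmcc2, with 608 CPM of Sptb where the next library had 426 CPM, and with 48.0 CPM of Tmcc2 where the next lowest had 65.4 CPM. Tspan33 stayed called in 8 and Tmcc2 in 7 of 16 alternatives, and neither was called without oldest-old GFP replicate 1 or replicate 4. Counts of the list called without oldest-old GFP replicate 4 fell to 1, and without replicate 1 to 2, of which Tal1 was 1. It was also 1 without young GFP replicate 4, and was 2, 3 and 2 without young GFP replicates 1, 2 and 3.

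In the other comparisons, edgeR called 0 of the 11 genes and DESeq2 also called 0. The background of calls was 4.7% for old GFP against young GFP, 0.00562% for oldest-old GFP against old GFP, 0% for AAV-Kl in old mice, 0.0112% for AAV-Kl in oldest-old mice and 0.472% for young GFP against young sham. Unadjusted p-values under 0.05 were found for 0, 3, 0, 0 and 2 of the 11 in the same order, and for 19.1%, 12%, 2.15%, 8.07% and 13.4% of all genes tested.

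Genes of nucleated red cell precursors were near 0 in most libraries and had their own high library. Hemgn, expressed in erythroid precursors, was at 0.462 CPM in oldest-old AAV-Kl replicate 1 and at 0.0837 CPM or less in the others. Kel, a blood group antigen, was at 0.322 CPM in that library, followed by 0.151 CPM in oldest-old GFP replicate 4. Of the 19 matched genes of the list, 7 were highest in oldest-old GFP replicate 4 and 6 in oldest-old AAV-Kl replicate 1, and none of them in oldest-old GFP replicate 1, whose Hbb-bs was the highest of all. Klf1, the master regulator of adult globin genes, was at 0 to 0.342 CPM, and its log2 CPM had a Pearson correlation of -0.0221 with Hbb-bs over the 24 libraries.

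Markers of other cell types were read beside these values. Myeloid precursor genes of the marrow (8 genes) summed to 7.52 and 10.04 CPM in oldest-old AAV-Kl replicates 1 and 2, to 4.20 CPM in oldest-old GFP replicate 4, to 3.00 CPM in young sham replicate 4 and to 1.94 CPM or less elsewhere. Mpo, which marks early granulocyte precursors, was at 0.583 and 0.968 CPM in the first 2 of these and at 0 in most libraries. Of the 8 genes 3 passed the filter. Of these 3, edgeR called 1 higher in oldest-old GFP against young GFP, where 8.8% of all genes tested were. This was Ngp, a granule protein of neutrophil precursors (log2 fold change 4.86, SE 1.61, edgeR adjusted p = 0.0464). Both libraries with a high Slc4a1 ratio were among those with these genes. Oldest-old AAV-Kl replicate 2, with the highest precursor sum, had a ratio of 0.891 Slc4a1 reads per 100 Hbb-bs reads, and young sham replicate 4 had 0.378. The part of marrow cells in the result was not tested.

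Blood neutrophil genes (8, all tested) summed to 1.51 to 7.75 CPM in young sham, 2.26 to 4.01 CPM in young GFP, 4.81 to 13.6 CPM in old GFP, 5.33 to 27.6 CPM in old AAV-Kl, 4.97 to 24.5 CPM in oldest-old GFP and 8.48 to 34.7 CPM in oldest-old AAV-Kl. In oldest-old GFP against young GFP 5 of 8 were called higher by edgeR and 0 lower. The shares over all genes tested were 8.8% and 6.08%. Without oldest-old GFP replicate 4 only Il1b of the 8 was called. The count was 3, 3 and 2 without young GFP replicates 2, 3 and 4. S100a8, a subunit of the neutrophil protein calprotectin, was at 0.751, 0.240, 0.306 and 3.72 CPM against 0.110, 0.0711, 0.0751 and 0.0222 CPM (log2 fold change 4.0, SE 0.93, edgeR adjusted p = 0.00697). In old GFP against young GFP edgeR called 0 of the 8, where 4.7% of all genes tested were called. An unadjusted p under 0.05 was found for 5 of the 8 and for 19.1% of all genes tested. DESeq2 called 3 of the 8, and 1226 of all 17803 genes tested. The highest sum, 34.7 CPM in oldest-old AAV-Kl replicate 2, was in a library where the 6 genes were not among the 5 highest. The next 3, 27.6 CPM in old AAV-Kl replicate 2 and 24.5 and 14.4 CPM in oldest-old GFP replicates 4 and 1, were in libraries among those 5. In young sham replicate 1, where the 6 genes were also high, the neutrophil sum was the lowest of all at 1.51 CPM. Platelet genes, of which 4 of 10 were tested, summed to 2.50 to 8.53 CPM over all libraries and edgeR and DESeq2 called 0 of them in each comparison, with 2 at an unadjusted p under 0.05 in old GFP against young GFP and 1 in oldest-old GFP against young GFP, where 29.8% of all genes tested had one. The part of whole blood, with its white cells, in the differences of the 6 genes was not tested.

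Endothelial genes (10, all tested) summed to 275 to 333 CPM in young GFP, 266 to 336 CPM in old GFP, 248 to 394 CPM in old AAV-Kl, 348 to 413 CPM in oldest-old GFP, 318 to 472 CPM in oldest-old AAV-Kl and 328 to 404 CPM in young sham. Every oldest-old GFP library thus lay above every young GFP library. In that comparison 3 of 10 were called higher and 0 lower by edgeR, where 8.8% and 6.08% of all genes tested were. Cldn5, a tight junction protein of vessel walls, rose by 1.43 on the log2 scale (edgeR adjusted p = 0.000664), Egfl7 by 0.62 (edgeR adjusted p = 0.000471) and Emcn by 0.50 (edgeR adjusted p = 0.0187). The part of vessel content in the differences of the 6 genes was not tested.

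**Figure D4:**
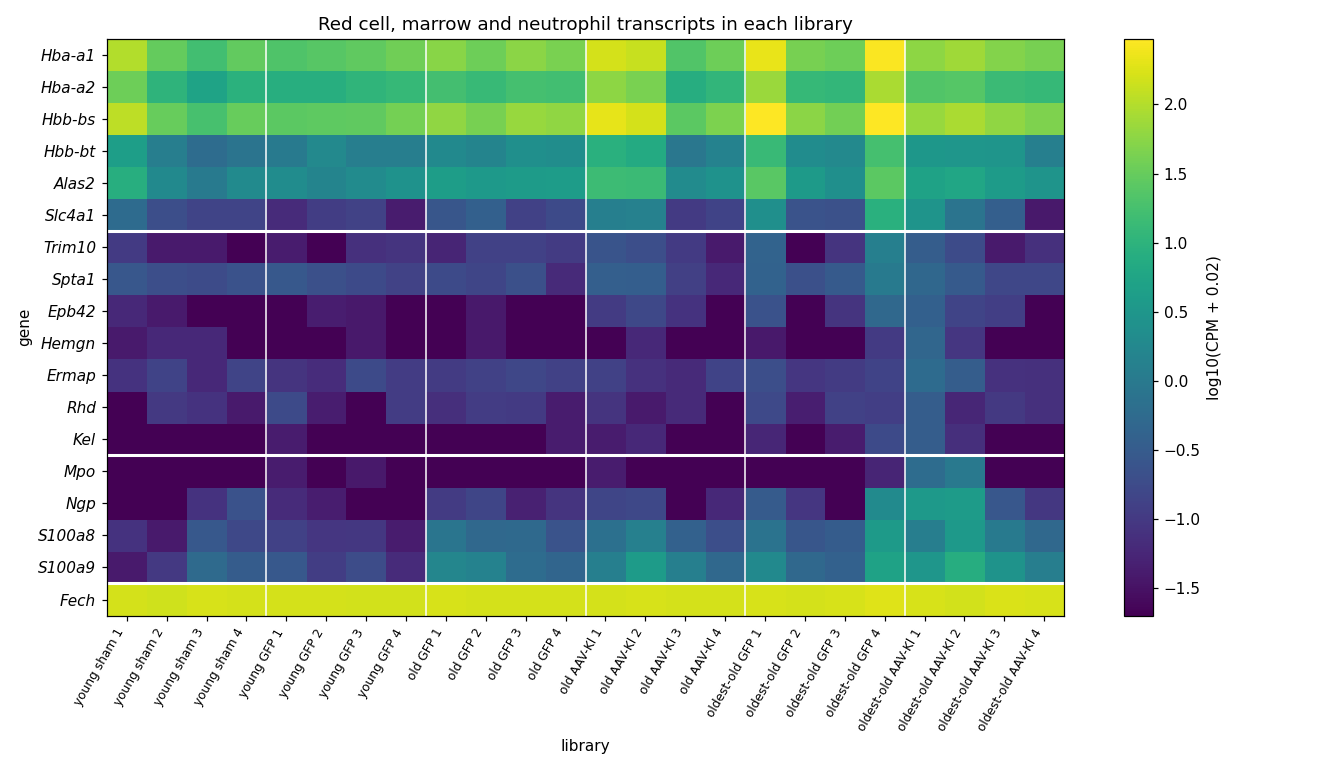
Levels as log10(CPM + 0.02) for 18 genes (rows) in 24 libraries (columns, in groups of 4), with white lines between the 6 red cell genes, other red cell genes, marrow and neutrophil genes, and Fech. The bright columns of the first block fall at young sham 1, old AAV-Kl 1 and 2, and oldest-old GFP 1 and 4, while Hemgn and Mpo are brightest at oldest-old AAV-Kl 1 and 2, respectively at 0.462 and 0.968 CPM.

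Reticulocyte transcripts that other cells also hold did not move together. Of the 10 genes in this list 2 were called higher by edgeR in oldest-old GFP against young GFP, Ube2o among them, and 2 lower, Slc25a37 and Tfrc. Over all genes tested, 8.8% were called higher and 6.08% lower. Ube2o, a ubiquitin ligase of late red cell maturation, rose by 0.28 on the log2 scale (edgeR adjusted p = 0.0221). Tfrc, the transferrin receptor that takes up iron, fell by 0.83 on the log2 scale (SE 0.28, edgeR adjusted p = 0.0492) and was lowest, at 25.2 CPM, in oldest-old GFP replicate 4. Of these 4 calls, 0 were left without that replicate and 1, Slc25a37, without replicate 1.

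Heme synthesis enzymes that every cell uses were read beside Alas2. Their 8 genes, which include Fech, which inserts iron into heme, summed to 367 to 437 CPM over all libraries. By edgeR 0 of the 8 were called in any of the 6 comparisons, with 2 at an unadjusted p under 0.05 in oldest-old GFP against young GFP, 1 in old GFP against young GFP and 0 in the others. Such a p was found for 29.8% of all genes tested in oldest-old GFP against young GFP and for 19.1% in old GFP against young GFP. DESeq2 called 1, Cpox, in oldest-old GFP against young GFP, where it called 3100 of all 17803 genes tested. Genes of hemoglobin and heme clearance and of iron storage summed to 1084 to 1559 CPM. Of these 10, Hpx and Hamp were called higher in old GFP than in young GFP, where 3.21% of all genes tested were (log2 fold changes 7.90 and 6.91, edgeR adjusted p = 0.00961 and 0.0198). Liver genes summed to 921 and 90.8 CPM in old GFP replicates 1 and 4 and to 4.01 CPM or less in replicates 2 and 3 and in all young GFP libraries, and their part in the Hpx and Hamp values was not tested.

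Of the 10 genes outside the 6 that were most like Hbb-bs over the 24 libraries, by Pearson correlation of log2 CPM, 8 are given here. Isg20 was at 0.82 (Spearman 0.658), followed by Apol11b (0.808), Fmo2 (0.794), Bcl7b (0.791), Ddx51 (0.783), Trim10 (0.778), Cited2 (0.774) and Kansl3 (0.755). Within groups Isg20 kept a correlation of 0.774, Apol11b of 0.702 and Fmo2 of 0.669. Leaving out the 2 libraries farthest from the median, oldest-old GFP replicates 1 and 4, Isg20 was at 0.69, Apol11b at 0.713 and Bcl7b at 0.826. The highest levels of these genes spanned 1.26 CPM for Trim10 to 91.2 CPM for Cited2.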

How the data were processed

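The authors aligned reads to GRCm38/mm10 with STAR 2.7.0a and deposited raw counts per gene from STAR, made from reads that map to 1 place; the annotation release is not given in the sources used here. Counts without regard to strand (column 2) were used. Symbols came from GENCODE M21, by which 55144 of 55385 identifiers were named. CPM is per 1000000 reads on genes. Log2 differences of the sum and correlations of log2 CPM instead use library sizes scaled by TMM, the correlations with a prior count of 2. Groups came from the labels. Genes were tested with edgeR 4.0.16 (R 4.3.3), by TMM, filterByExpr (minimum count 10) and a quasi-likelihood test over all 24 libraries in 1 fit, at an adjusted p under 0.05 (Benjamini-Hochberg), with DESeq2 1.42.0 as an alternative. The steps were tested on simulated data. The 6 genes and all lists were chosen with earlier results of these data known. Named are all 6, red cell genes, the 2 most abundant or the called genes of the other lists, and the 10 genes most like Hbb-bs, except for some that are not reported here but stay in the counts. Hemgn, Kel, Mpo and Fech were picked after their values were seen. Separate animals are given as replicates by the study for the 5 virus groups; for young sham, p-values measure the spread between samples, which may be technical. Same-numbered libraries did not deviate together (24 pairs, correlations -0.533 to 0.201), so numbers were not taken as pairs. Depth sets counting error only, and genes under about 10 reads are imprecise.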

Additional observations from a re-analysis of the deposited data

Results flagged for a closer look

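In each group of 4, a library was noted when its gap to the nearest other exceeded Dixon's 95% limit. Over 72 such groups of values (6 genes, their sum and 5 ratios in 6 groups) 9 were noted, and chance notes about 1 in 20, so that most single ones carry little weight. In young sham, replicate 1 stood high in 5 of them, with 113.2 CPM of Hbb-bs where the next library had 32.2 CPM, 4.38 CPM of Hbb-bt, 8.285 CPM of Alas2, 0.558 CPM of Slc4a1 and 259.9 CPM in the sum, where the next had 76.5 CPM. These 5 are not independent, since the genes move together. Hbb-bs in young GFP replicate 4 was high at 39.79 CPM and Hbb-bt in oldest-old AAV-Kl replicate 4 low at 1.262 CPM. Hbb-bt in old GFP replicate 1 was low at 3.083 reads per 100 Hbb-bs reads. Slc4a1 in oldest-old GFP replicate 4 was high at 3.017 reads per 100 Hbb-bs reads, where the next library had 0.792. The high pairs in old AAV-Kl and oldest-old GFP cannot be noted by such a gap, because each has 2 libraries.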

How the results depend on the processing

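Direction of the 6 genes depended on single libraries more than on any other choice. Of 567 values recomputed for them, 562 moved by less than the SD between libraries and 7 changed sign, all but 1 by leaving out young sham replicate 1 or oldest-old GFP replicate 4, the last being Hbb-bt in young GFP against young sham (0.00 with a replicate block). The summed level moved by less than that SD in all 66 recomputations and changed sign in 2. Leaving out 1 library at a time, the sum ran from 0.72 to 0.95 for old GFP against young GFP, 1.33 to 2.29 and 0.53 to 1.49 for oldest-old GFP against young GFP and old GFP, -0.01 to 1.02 and -1.37 to -0.41 for AAV-Kl in old and oldest-old mice, and -0.61 to 0.31 for young GFP against young sham.

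Red cell genes called in oldest-old GFP against young GFP numbered 5, but 3 without young sham libraries, 3 with the replicate block, 2 on the first strand column, 1 without the filter, 0 in the compared groups alone and 1 to 6 leaving out 1 library; for blood neutrophil genes this last range was 1 to 5, from 5. These settings were applied to the lists after seeing the data. Trim10 stayed called in 5 of 14 alternatives and Tal1 in 10 of 16.

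Over all genes the counts called were 837 (old GFP against young GFP), 2649 (oldest-old GFP against young GFP), 1 (oldest-old GFP against old GFP), 0 and 2 (AAV-Kl in old and oldest-old mice), 84 (young GFP against young sham) and 1 (difference of the AAV-Kl effects). They became 553, 1755 and 0 for the first 3 without the filter. DESeq2 gave 120 for the third, 25 for AAV-Kl in oldest-old mice and 290 for sham. With the compared groups alone they were 1275, 1249, 0, 0, 0, 174 and 0. On the first strand column they were 540 for the first, 0 for the third, 1 for AAV-Kl in oldest-old mice and 0 for the last. Without young sham libraries the third and the last were 0. With the replicate block the third and the last were 0, and 710, 2510, 2 and 69 were called for the first, the second, AAV-Kl in oldest-old mice and sham. Leaving out 1 library gave 375 to 679, 1673 to 2755, 0 to 3, 0, 1 to 4, 1 to 114 and 0 to 1. For AAV-Kl in old mice edgeR and DESeq2 both called 0, with 383 at an unadjusted p under 0.05. With the size factors of DESeq2, 56 of 78 calls against young sham were higher, in place of 50 of 84. Causes were not tested. Slc4a1 and the precursor genes rest on few reads in most libraries, so ratios built on them are imprecise.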
